A study of Mus musculus with 4 samples.

Results

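Messenger RNA of 10 regulators known from fetal germ cells and pluripotent cells (Pou5f1, Sall4, Sall1, Lin28a, Utf1, Sox2, Nanog, Tfap2c, Prdm1 and Dppa3) was followed in male mouse germ cells cultured with or without CBR-5884. The genes were taken by symbol, and each matched 1 of the 36088 genes in the table. The set was chosen with earlier results of these data known, and all 10 are given whatever their result. The cells carry a wild-type genotype and had been sorted out of fetal testes in culture, and the sample titles give day 14 and a prefix, VR, that the labels do not explain. Per the labels, 2 libraries came from cultures with CBR-5884, an inhibitor of serine metabolism, and 2 from cultures with DMSO alone, the solvent. CBR-5884 is known to block Phgdh, which opens the serine synthesis pathway. The study asked what serine metabolism does in male germ cell differentiation. No source used here gives the sort marker, the number of testes behind a library or the dose of CBR-5884. Libraries are called by condition and by the number in the table (2 or 4), because that number matches no labelled replicate.

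Germ cells of the fetus keep part of the transcription factor network of pluripotent cells. Pou5f1 (also called Oct4), Sox2 and Nanog form its core, while Prdm1 and Tfap2c set up the primordial germ cell state and Dppa3 marks it. In male germ cells this programme is largely shut down before birth, while Pou5f1, Sall4, Lin28a and Utf1 are also found in undifferentiated spermatogonia. A fall or persistence of these mRNAs is therefore a common readout of how far male germ cells have moved along.

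Pou5f1 and Sox2 proteins bind DNA side by side at a composite site, an octamer next to a Sox element, and the Nanog promoter is the textbook case. The table of RefSeq promoters (GRCm38.p6) held 7 of the 10 genes, all but Sall4, Dppa3 and Tfap2c. The octamer core ATGCAAA and the Sox core CATTGT were searched on both strands in the 250 bases before each start site. The 4 stretches of 80 bases below are shown, 5′ to 3′ on the gene's own strand, because they hold such a match or, for Pou5f1, a GC box GGGCGG in its place. Capitals mark the matched letters. They lie at chr6:122707379-122707458 (+) for Nanog, chr3:34649860-34649939 (+) for Sox2, chr4:134018867-134018946 (−) for Lin28a and chr17:35505922-35506001 (+) for Pou5f1, and no annotated exon overlaps them.
Nanog: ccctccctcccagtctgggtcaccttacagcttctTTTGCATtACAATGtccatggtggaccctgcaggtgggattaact
Sox2: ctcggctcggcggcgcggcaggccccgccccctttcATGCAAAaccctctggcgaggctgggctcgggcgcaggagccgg
Lin28a: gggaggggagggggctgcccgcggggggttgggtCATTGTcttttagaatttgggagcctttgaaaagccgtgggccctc
Pou5f1: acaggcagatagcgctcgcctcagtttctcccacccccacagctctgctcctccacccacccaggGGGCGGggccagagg

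In Nanog both cores stand on the reverse strand with 1 base between them, the octamer core from −75 to −69 and the Sox core from −67 to −62 relative to the first start site. Of 27025 genes with a promoter in that table, Nanog was the 1 gene with both cores spaced and oriented in this way. That search took the exact letters and spacing seen in Nanog, so its own match was given in advance. Composite sites with any other letter or spacing were not counted. Sox2 had an octamer core from −99 to −93, and Lin28a a Sox core from −96 to −91. For Sox2 this is relative to the RefSeq start site at 34649995, which lies upstream of the GENCODE start at 34650405 given below. The octamer core was present for 4.65% of genes with a promoter, the Sox core for 12.2% and the GC box for 35.4%. The second RefSeq start site of Pou5f1 also had a Sox core, and the GC box was found for Pou5f1, Sall1, Utf1 and Sox2. These matches describe letters in a window and say nothing of binding in these cells.

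The table gives gene-level TPM, transcript abundance per base of transcript relative to the library total. Summed TPM differed between libraries, from 966761 in CBR-5884 library 4 to 1002976 in DMSO library 2. The estimated depth was 22400000 to 28200000 reads per library. All 7 germ cell markers examined (Ddx4, Dazl, Mael, Tex101, Piwil2, Tdrd1 and Dnd1) were abundant, with summed levels of 2307 and 2297 TPM with DMSO and 2332 and 2327 TPM with CBR-5884. Markers of other testis cells were present at lower levels. The 7 Sertoli cell markers, which all reached 1 TPM, summed to 255 and 149 TPM in DMSO libraries 2 and 4 and to 216 and 176 TPM in CBR-5884 libraries 2 and 4. The 6 peritubular and interstitial markers summed to 39.0 to 45.6 TPM, the 5 Leydig markers to 4.48 to 6.70 TPM, the 3 endothelial markers to 7.79 to 8.89 TPM and the 3 blood markers to 2.13 to 7.54 TPM, with Hbb-bs at 0 throughout. In such bulk libraries, fewer cells of a type and less RNA per cell cannot be told apart.

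The 10 regulators covered a wide range of levels in the same cells, from about 100 TPM for Sall4 to under 1 TPM for Dppa3. Sall4, Pou5f1 and Lin28a made up 84.1 to 86.5% of the summed level of all 10, which was 305 and 275 TPM with DMSO and 325 and 269 TPM with CBR-5884. Of the 14920 genes with a mean of at least 1 TPM, 85.2% had a lower mean than Sall4, 82.8% a lower mean than Pou5f1 and 73.1% a lower mean than Lin28a. For Sall1 the share was 47.9%, for Utf1 34.7%, for Sox2 30.1%, for Nanog 14.6%, for Tfap2c 10.6% and for Prdm1 7.41%. Dppa3 had a mean of 0.854 TPM and was the 1 regulator below the minimum for testing. Sall4 and Pou5f1 were not separated beyond their spread, since Pou5f1 was the higher of them in CBR-5884 library 2. The drops from Pou5f1 to Lin28a, from Lin28a to Sall1, from Sall1 to Utf1 and from Sox2 to Nanog were seen in every library with no overlap of the 4 values of each gene. Utf1 overlapped Sox2, and Nanog, Tfap2c, Prdm1 and Dppa3 formed a low group in which each gene overlapped the next.

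**Figure D1:**
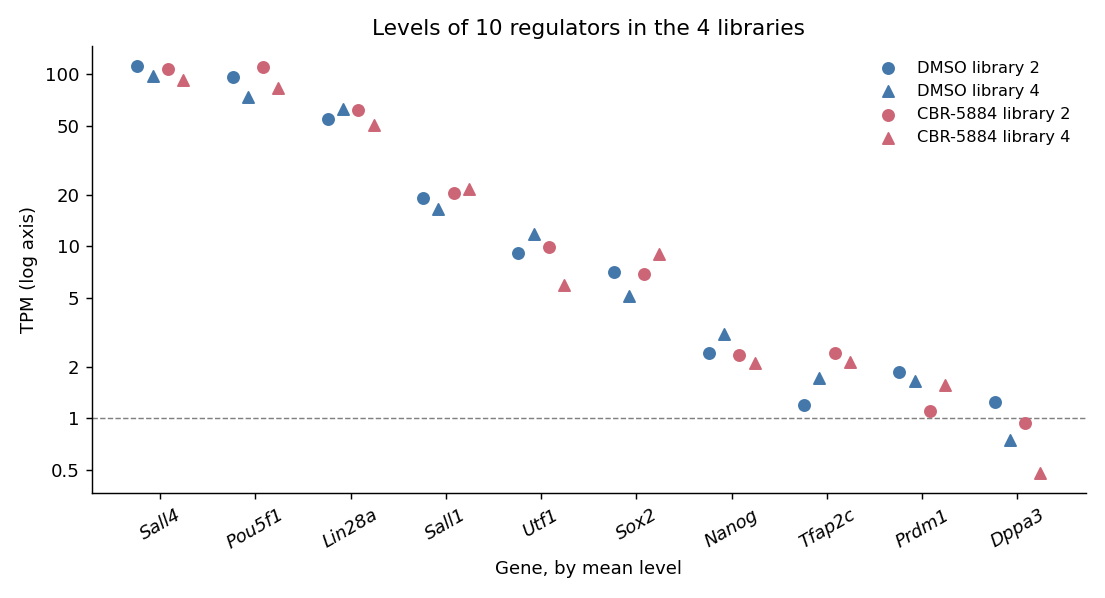
TPM of the 10 regulators (log axis), 1 point per library, blue for DMSO and red for CBR-5884, circles for library 2 and triangles for library 4. The dashed line is the minimum mean of 1 TPM for testing; Sall4, Pou5f1 and Lin28a lie at 50.5 TPM or more in every library, and Nanog, Tfap2c, Prdm1 and Dppa3 at 3.08 TPM or less.

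None of the 9 tested regulators passed the threshold for a difference between the conditions. Over all 14920 genes tested with limma on log2(TPM + 1), 0% were higher and 0% lower with CBR-5884 at a Benjamini-Hochberg adjusted p under 0.05. The 9 regulators all had a limma adjusted p of 0.998, and their smallest unadjusted p in that test, for Sall1, was 0.145. None of the 9 reached an unadjusted p under 0.05 (0 of 9), against 3.66% of all tested genes. Fold changes were positive for 4 and negative for 5 of the 9, and 47.2% of all tested genes had a positive one. With library totals set equal, 54.1% of all tested genes had a positive one, and each regulator kept its sign. The median log2 fold change of all 10 regulators was −0.07, beside −0.01 for all tested genes. The labels do not say whether the 2 biological replicates of a condition came from separate animals, so p-values and intervals cover the spread between these libraries only.

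The pluripotency factor Pou5f1, a POU domain protein encoded on chromosome 17 (35506018 to 35510772, GRCm38), had 97.1 and 74.0 TPM in DMSO libraries 2 and 4 and 111 and 82.8 TPM in CBR-5884 libraries 2 and 4. Both libraries numbered 2 were the high ones, and the conditions overlapped. The log2 fold change was 0.17 with a 95% interval from −0.27 to 0.61 (limma). Its sign turned when DMSO library 4 (−0.02) or CBR-5884 library 2 (−0.03) was left out. Between libraries of the same number, CBR-5884 was the higher in both cases. With the library number as a block the interval ran from −0.018 to 0.36, though no label pairs these libraries. Leaving out DMSO library 2 gave 0.37, and leaving out CBR-5884 library 4 gave 0.38. Within the conditions library 2 exceeded library 4 by 0.39 with DMSO and 0.41 with CBR-5884 on the log2 scale. The summed Sertoli markers were also higher in both libraries numbered 2, and their part in this difference was not tested.

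Sall4, a zinc finger protein that maintains both pluripotent cells and spermatogonia (chromosome 2, 168748332 to 168767943), had 111 and 97.9 TPM in DMSO libraries 2 and 4 and 108 and 92.5 TPM in CBR-5884 libraries 2 and 4. As for Pou5f1, the libraries numbered 2 were higher in both conditions, and the conditions overlapped. Its log2 fold change of −0.06 had the narrowest interval of the 9, from −0.33 to 0.21. The sign turned without DMSO library 2 (0.03) or without CBR-5884 library 4 (0.05). Between libraries of the same number, CBR-5884 was the lower in both cases. With the library number as a block the interval ran from −0.25 to 0.12. Leaving out DMSO library 4 gave −0.16, and leaving out CBR-5884 library 2 gave −0.17. Higher values in both libraries numbered 2 were found for 2 of the 9 tested regulators and for 30% of all tested genes.

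Sall1, the related zinc finger protein best known from kidney development (chromosome 8, 89027235 to 89044162), had 19.1 and 16.4 TPM with DMSO and 20.3 and 21.7 TPM with CBR-5884, in libraries 2 and 4 respectively. Both CBR-5884 values lay above both DMSO values. The log2 fold change was 0.23 with an interval from −0.11 to 0.57, so a change of up to 1.48-fold upward lay within it. It ranged from 0.13 to 0.34 when each library was left out in turn, the smallest value coming without DMSO library 4 and the largest without DMSO library 2.

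Lin28a, an RNA-binding protein that blocks maturation of let-7 microRNAs (chromosome 4, 134003330 to 134018841), had 54.8 and 62.9 TPM in DMSO libraries 2 and 4 and 62.0 and 50.5 TPM in CBR-5884 libraries 2 and 4. The highest and the next highest value came from different conditions, and the groups overlapped. The log2 fold change was −0.07 (95% interval −0.39 to 0.25), and it turned to 0.03 when DMSO library 4 was left out and to 0.08 when CBR-5884 library 4 was. Leaving out DMSO library 2 gave −0.17, and leaving out CBR-5884 library 2 gave −0.21.

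Utf1, a chromatin-bound protein of pluripotent cells and spermatogonia (chromosome 7, 139943789 to 139945112), varied most between libraries among the regulators above 5 TPM. It had 9.19 and 11.8 TPM in DMSO libraries 2 and 4 and 9.97 and 5.92 TPM in CBR-5884 libraries 2 and 4. Only CBR-5884 library 4 was low, and CBR-5884 library 2 lay between the DMSO values. The log2 fold change of −0.39 had an interval from −1.05 to 0.27, and 91.2% of all tested genes had a smaller absolute fold change. Without CBR-5884 library 4 it was −0.06, and without CBR-5884 library 2 it was −0.72. Without DMSO library 4 it was −0.23, and without DMSO library 2 it was −0.56.

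Sox2, the partner of Pou5f1 in pluripotent cells (chromosome 3, 34650405 to 34652461), had 7.07 and 5.13 TPM in DMSO libraries 2 and 4 and 6.87 and 8.99 TPM in CBR-5884 libraries 2 and 4. The highest value came from CBR-5884 library 4, the lowest from DMSO library 4, and the remaining pair was close. The log2 fold change was 0.33 with an interval from −0.24 to 0.91, or 0.22 with a pseudocount of 5. Leaving out DMSO library 4 gave 0.14, and leaving out CBR-5884 library 4 gave 0.16. With DMSO library 2 left out it was 0.53, and with CBR-5884 library 2 left out it was 0.51.

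**Figure D2:**
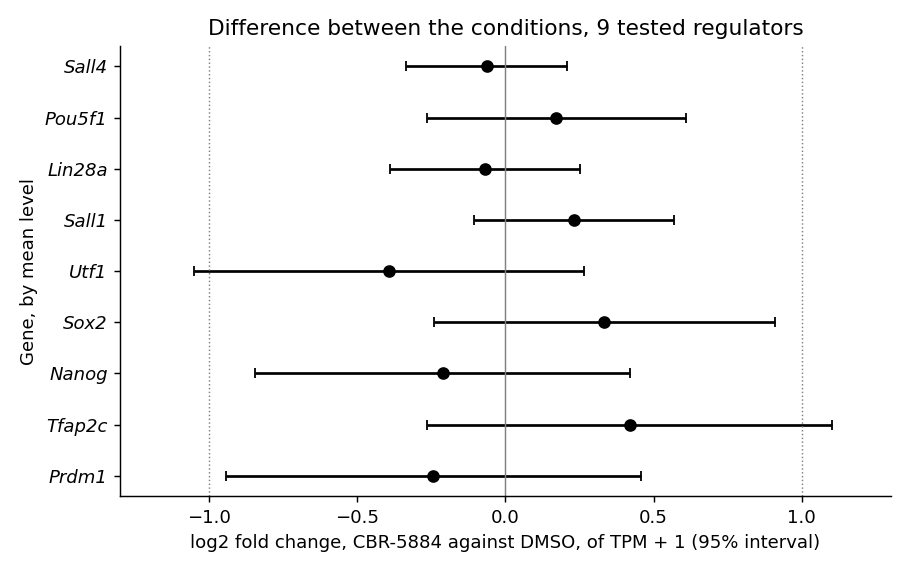
Log2 fold change of TPM + 1 between CBR-5884 and DMSO for the 9 tested regulators, ordered by mean level, with the 95% interval from limma (2 libraries per condition). Each of the 9 intervals holds 0, and 7 of them lie within a 2-fold change of TPM + 1 either way (dotted lines). That scale understates fold changes of TPM for low genes.

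For Utf1 and Sox2, which have 1 transcript each in the table, the deposited scaled reads came out as whole numbers of reads within 0.05. Sall1, also with 1 transcript, had 2043.5 in DMSO library 2. Among low values of all genes with 1 transcript, 48.5 to 50.1% were whole. Utf1 rested on 222 and 265 reads with DMSO and 280 and 152 reads with CBR-5884, in libraries 2 and 4 respectively. Scaled to 1000000 estimated reads per library this was 9.93 in CBR-5884 library 2 (95% exact Poisson interval 8.80 to 11.2) and 6.001 in CBR-5884 library 4 (5.09 to 7.03). The libraries of the same condition thus differed by more than counting error. Sox2 rested on 291 and 196 reads with DMSO and 329 and 393 reads with CBR-5884, and its DMSO libraries also had intervals that did not overlap, at 11.8 (10.5 to 13.3) and 8.73 (7.55 to 10.04) on the same scale. These intervals cover counting error only.

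**Figure D3:**
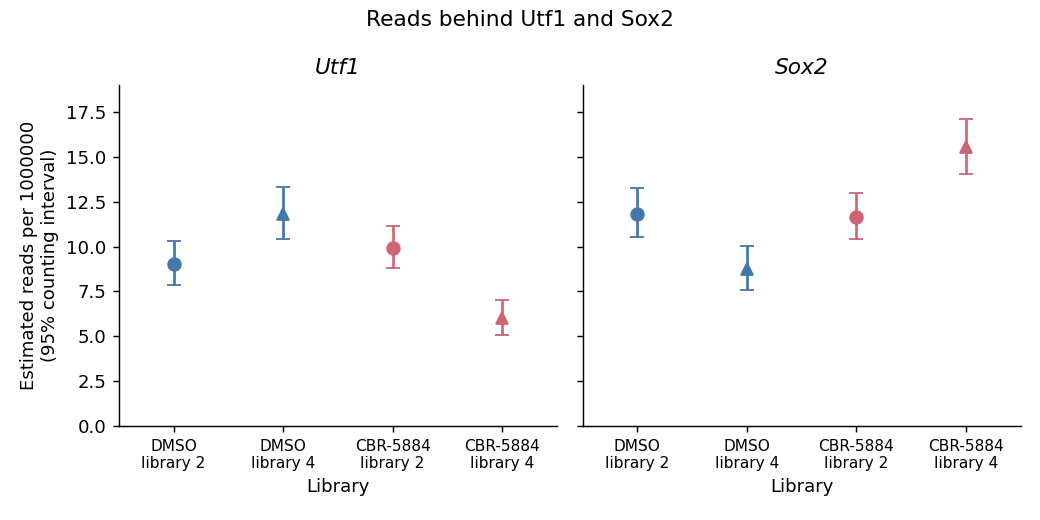
Estimated reads of Utf1 and Sox2 per 1000000 reads of the library, with 95% exact Poisson intervals (blue DMSO, red CBR-5884). Intervals of libraries of the same condition do not overlap for Utf1 and Sox2, with 6.001 for Utf1 in CBR-5884 library 4 as the lowest point.

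Nanog, the homeodomain factor whose promoter carries the composite site printed above, was low in all 4 libraries. It had 2.39 and 3.08 TPM in DMSO libraries 2 and 4 and 2.34 and 2.09 TPM in CBR-5884 libraries 2 and 4 (chromosome 6, 122707489 to 122714633). Both CBR-5884 values were below both DMSO values, the nearest pair being the libraries numbered 2. The log2 fold change was −0.21, with an interval from −0.85 to 0.42. Leaving out DMSO library 4 gave −0.08, leaving out DMSO library 2 gave −0.34, and a pseudocount of 5 gave −0.10. Pou5f1 mRNA stood at 74.0 TPM or more in the same libraries.

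The factors of primordial germ cell specification were also low. Tfap2c, an AP-2 transcription factor (chromosome 2, 172549593 to 172558622), had 1.19 and 1.71 TPM with DMSO and 2.40 and 2.12 TPM with CBR-5884, both CBR-5884 values being the higher. Its log2 fold change of 0.42 was the largest of the 9 on the log2(TPM + 1) scale, with an interval from −0.26 to 1.10. It was 0.62 with a pseudocount of 0.1, 0.17 with a pseudocount of 5 and 0.65 on the scaled reads per base. With a pseudocount of 5, Utf1 (−0.27), Sox2 (0.22) and Sall1 (0.19) had larger absolute values. Leaving out DMSO library 2 gave 0.27 and leaving out DMSO library 4 gave 0.57. Prdm1 (Blimp1), a transcriptional repressor (chromosome 10, 44437177 to 44528501), had 1.85 and 1.64 TPM with DMSO and 1.102 and 1.56 TPM with CBR-5884. Both CBR-5884 values were the lower, and the log2 fold change was −0.24 (interval −0.94 to 0.46). It was −0.39 with a pseudocount of 0.1, −0.41 on the scaled reads per base and −0.09 with a pseudocount of 5. Leaving out CBR-5884 library 2 gave −0.10, and leaving out CBR-5884 library 4 gave −0.38.

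Dppa3 (Stella), a protein that protects the maternal genome from demethylation and marks primordial germ cells (chromosome 6, 122626410 to 122630272), had 1.24 and 0.750 TPM in DMSO libraries 2 and 4 and 0.940 and 0.481 TPM in CBR-5884 libraries 2 and 4. The conditions overlapped, and library 2 was the higher in each. Its level rested on an estimated 18.2 and 10.2 reads with DMSO and 15.99 and 7.47 reads with CBR-5884. For the highest and the lowest of these, 95% Poisson intervals were taken at the nearest whole numbers, 18 and 7 reads. They ran from 10.7 to 28.4 and from 2.81 to 14.4 reads and overlapped. The reads are estimates and not whole counts, so these intervals are only approximate.

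Among the 9 tested regulators the conditions did not overlap for 4, of which Sall1 and Tfap2c were higher and Nanog and Prdm1 lower with CBR-5884. Of all tested genes 13.6% were higher without overlap and 17.7% lower without overlap. For 7 of the 9 the difference between conditions was smaller than the larger of both differences within a condition, as for 80.1% of all tested genes. The exceptions were Sall1 and Tfap2c, at 0.23 against 0.21 and 0.42 against 0.30 on the log2 scale.

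**Figure D4:**
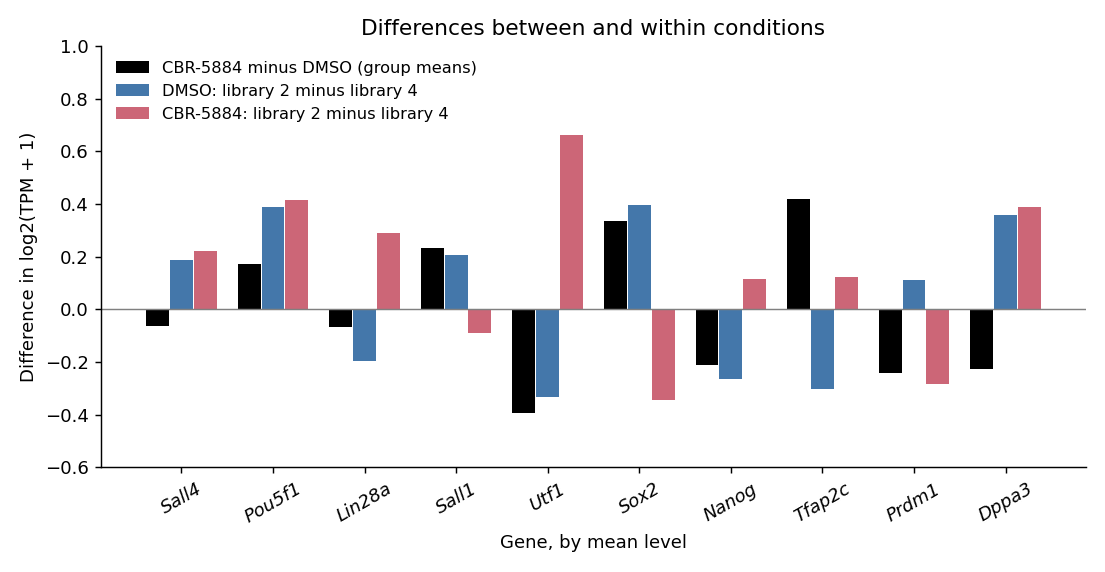
Differences in log2(TPM + 1) for each of the 10 regulators: between the condition means (black), and between libraries 2 and 4 within DMSO (blue) and within CBR-5884 (red). Pou5f1, Sall4 and Dppa3 are higher in library 2 in both conditions, and the largest bar is 0.66 for Utf1 within CBR-5884.

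How firmly each gene could be assigned differed. Of the 31-base words of Dppa3 transcripts, 29.6% also occurred in other genes of the table, mostly in the pseudogene Dppa3-ps, which had at most 0.547 TPM. For Nanog the share was 10.6%, spread over 803 genes, and for Pou5f1 it was 4.79%, mostly in the pseudogene Gm5712 with at most 0.604 TPM. Sall4, Lin28a, Utf1 and Tfap2c shared 0 such words, and Sall1, Prdm1 and Sox2 under 1%. Genes on the opposite strand in GENCODE M21 cover 14.1% of the exonic length of Pou5f1 (Gm19553), 9.50% of Sall4 (Gm14261) and 5.86% of Lin28a (Gm13061). These opposite-strand genes are not among the genes with deposited values. No source used here says whether counting used the strand, so their reads cannot be told apart from the regulators' own over those stretches.

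Of 25 other genes of the pluripotency network, 19 were tested with limma, 0 passed the threshold and 0 had an unadjusted p under 0.05. Their fold changes were positive for 11 and negative for 8, with a median of 0.06. With equal library totals 14 were positive and 5 negative. Fbxo15, an F-box gene controlled by Pou5f1 and Sox2, had 16.7 and 15.9 TPM with DMSO and 23.5 and 16.5 TPM with CBR-5884. Tfcp2l1, a factor of naive pluripotency, had 11.1 and 14.5 TPM against 9.91 and 11.4 TPM. Tbx3, a T-box factor named here after its values were seen, had the largest fold change of this list, with 1.57 and 1.32 TPM with DMSO and 2.73 and 2.21 TPM with CBR-5884. Both CBR-5884 values were the higher, and its log2 fold change of 0.50 (95% interval −0.16 to 1.17, limma) was larger than that of any of the 9 regulators. Esrrb, Fgf4, Tdgf1, Gdf3, Lefty1 and L1td1 had means under 1 TPM and were not tested.

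Of 21 further genes of fetal and primordial germ cells 20 were tested and 0 passed the limma threshold or had an unadjusted p under 0.05, with 12 positive, 8 negative and a median of 0.03. Alpl, the alkaline phosphatase used to stain primordial germ cells, had 17.97 and 22.1 TPM with DMSO and 21.9 and 21.3 TPM with CBR-5884. Kit, the receptor for the survival factor Kitl, had 70.0 and 111 TPM against 62.2 and 82.4 TPM. Prdm14, a partner of Prdm1 and Tfap2c in germ cell specification, had at most 0.356 TPM in any library.

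Genes of undifferentiated spermatogonia, the stage that also expresses Pou5f1, Sall4, Lin28a and Utf1, had 7 positive and 7 negative fold changes among 14 tested of 15 listed. Their median was 0.03, and 0 genes passed the limma threshold. The even split depended on the library totals: with equal totals 12 were positive and 2 negative. Neurog3, a factor of progenitors about to differentiate, had 4.87 and 3.24 TPM with DMSO and 10.1 and 5.23 TPM with CBR-5884 (log2 fold change 0.74, 95% interval −0.09 to 1.56). Foxo1, which supports the stem cell pool, had 55.2 and 52.3 TPM against 54.5 and 50.6 TPM.

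Of 16 paralogs of the regulators 10 were tested with limma, 0 passed the threshold, 6 were positive and 4 negative, and the median was 0.07. Lin28b, which also blocks let-7, had 30.6 and 33.3 TPM with DMSO and 33.9 and 35.1 TPM with CBR-5884, and Sall3 had 4.82 and 6.03 TPM against 4.10 and 5.46 TPM. The 19 proteins that work with the regulators include the NuRD complex bound by Sall4 and Sall1 and the uridylating enzymes recruited by Lin28a. All were tested, 0 passed the threshold, 5 were positive and 14 negative, and the median was −0.04. With equal library totals 8 were positive and 11 negative. Tut7, one of those uridylating enzymes, had 25.2 and 21.6 TPM with DMSO and 24.5 and 30.6 TPM with CBR-5884. Mta1, a NuRD subunit, had 84.8 and 86.8 TPM against 69.9 and 76.2 TPM and was the 1 gene of these lists at an unadjusted p under 0.05 (limma unadjusted p = 0.0363, adjusted p = 0.998).

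**Figure D5:**
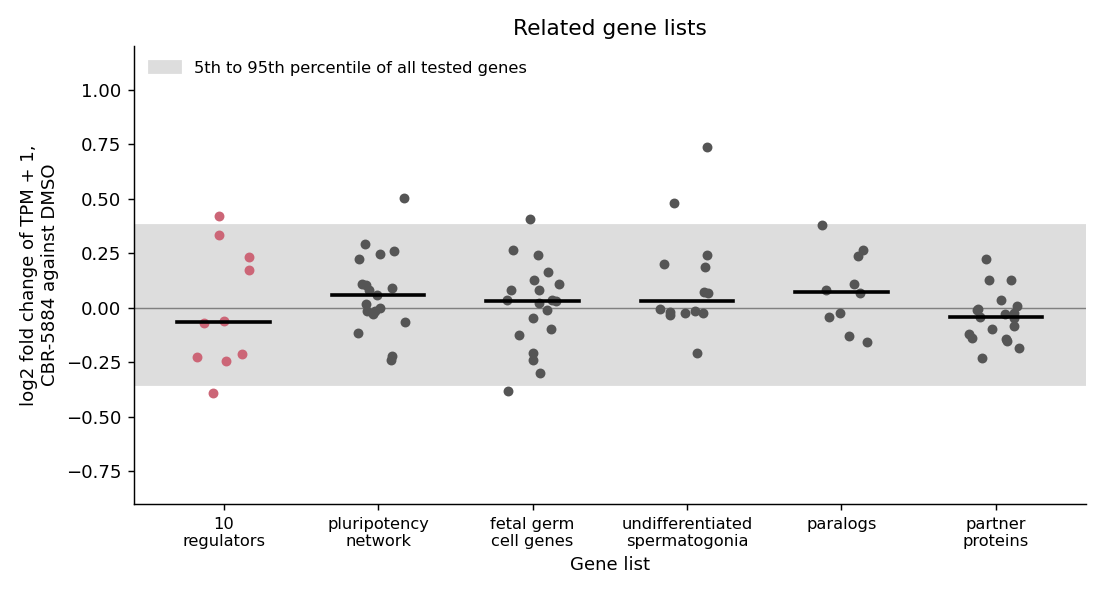
Log2 fold change of TPM + 1 between CBR-5884 and DMSO, 1 point per gene, for the 10 regulators (red) and the tested genes of the related lists (grey), with each list's median as a bar. The band spans the 5th to the 95th percentile of all 14920 tested genes, from −0.36 to 0.38, and the medians lie between −0.07 and 0.07.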

How the data were processed

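The submitters' processing notes name kallisto, fastp and mm10 without versions or settings. The authors deposited TPM as a signal value per gene, repeated on each of 469612 transcript lines, and 1 line per gene and library was kept. They also deposited scaled reads per base, a signal value on a scale set per library. The commonest low value among genes with 1 transcript was taken as 1 read, and the total divided by it as the depth. Only 35.4 to 36.3% of low values (up to 20.5 reads) of all genes were whole within 0.05, so no count test was run.

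Genes with a mean of at least 1 TPM were compared with limma 3.58.1 (limma-trend, R 4.3.3), two-sided, on log2(TPM + 1) over 4 libraries without covariates, at a Benjamini-Hochberg adjusted p under 0.05. Fold changes are on that scale and understate those of low genes. An exact permutation test of 2 against 2 libraries cannot go below 0.33 and was not used. On 20 simulated tables of 14920 genes for this comparison, 46.0% of 2-fold and 80.2% of 4-fold changes of TPM + 1 were recovered. Every simulated table held 100 planted genes per size of change. The adjusted p of a gene depends on how many others change, and 0 genes passed in the real comparison. The shares recovered therefore do not give the chance of detecting a lone changed regulator in these libraries. A mean of 6.85 unchanged genes per table were called. For low genes such changes are larger in TPM, so these shares do not hold for the same fold changes of TPM there.

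Named genes are the 10 regulators, whatever their result, marker genes, and the highest and lowest fold change of each related list among genes with a mean of at least 5 TPM. Tbx3, Sox3, Trim71, Dppa4, Prdm14 and the other untested genes named fall outside this rule. Members and lists were chosen with earlier results of these data known. Positions come from GENCODE M21 on GRCm38 (35820 of 36088 genes matched by identifier). Alternatives were pseudocounts of 0.1 and 5, no filter, a minimum mean of 5 TPM, scaled reads, equal library totals, robust variances, a block for the library number, and each library left out.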

Additional observations from a re-analysis of the deposited data

How the results depend on the processing

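With 2 libraries per condition, a 2-fold change of TPM + 1 lay within the 95% interval for Utf1 and Tfap2c. That scale understates fold changes of low genes. With a pseudocount of 0.1, the interval reached −1.54 for Prdm1, −1.16 for Nanog and 1.01 for Sox2 on the log2 scale. A 2-fold change therefore lay within those intervals too. In all 12 alternatives 0 regulators passed the limma threshold, and the smallest adjusted p of any regulator was 0.76, reached for Sall1, Sox2 and Pou5f1 with a library left out. Over all genes 1 was called lower with scaled reads and 1 higher with robust variances, against 0. Genes at an unadjusted p under 0.05 numbered 1079 with no filter and 393 to 1034 with 1 library left out, against 546. The median of the regulators was 0.055 over the 6 with a mean of at least 5 TPM, and −0.14 to 0.063 with each library left out. Leaving out each library in turn gave −0.034 to 0.38 for Pou5f1, −0.17 to 0.048 for Sall4 and −0.21 to 0.077 for Lin28a, the regulators whose sign turned. List medians then ran from −0.019 to 0.037 for fetal germ cell genes, −0.039 to 0.17 for paralogs, −0.073 to −0.035 for partners and −0.038 to 0.098 for undifferentiated spermatogonia, and partners had −0.016 with equal library totals. The cause of these shifts was not tested. Where 1 library remained in a condition it was assumed to vary like the others. The library number as a replicate block gave 0 calls and 0 regulators past the threshold, with the same fold changes and 797 genes at an unadjusted p under 0.05; the same-numbered libraries deviated together with a correlation of 0.20 across genes, in 2 pairs and without a label that pairs them.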

Other observations

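Some further genes of the related lists were abundant in the same libraries. These genes were chosen after their values were seen. Sox3, a SoxB1 factor of spermatogonia on the X chromosome, had 137 and 121 TPM with DMSO and 145 and 111 TPM with CBR-5884, where its paralog Sox2 had at most 8.99 TPM. Both libraries numbered 2 were the high ones, as for Pou5f1 and Sall4. Library 2 was the higher in both conditions for 30% of all tested genes. Trim71, a target of let-7 microRNAs, had 93.8 and 80.5 TPM with DMSO and 89.0 and 84.5 TPM with CBR-5884. Dppa4, a chromatin protein of pluripotent cells, had 49.5 and 36.9 TPM against 55.7 and 46.4 TPM. For Trim71 and Dppa4, too, library 2 was the higher in each condition.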
